A study of Danio rerio with 12 samples.

Results

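The Hsp90 and Hsp70 chaperones were followed through 10 genes of the zebrafish kidney, out of 14781 genes in the count tables. The genes were taken by symbol, whatever their level: hsp90aa1.1, hsp90aa1.2 and hsp90ab1 for the cytosolic Hsp90s, hspa8 and hsp70l for the cytosolic Hsp70s, hspa4a and hspa4b for the large Hsp70 relatives, hsp90b1 and hspa5 for the endoplasmic reticulum (ER), and hspa9 for the mitochondrion. All 10 were present, and all 10 passed the filter on low counts. The set was chosen with earlier results of these data known, so its counts beside the shares over all genes are descriptions.

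Hsp70 proteins bind short hydrophobic stretches of unfolded proteins and release them in a cycle of ATP binding and hydrolysis that J-domain proteins and nucleotide exchange factors drive. Hsp90 proteins act later, holding nearly folded clients such as kinases and steroid hormone receptors in a state that can still be activated. Each compartment has its own forms. Heat shock factors raise the inducible cytosolic forms when proteins misfold, whereas the unfolded protein response raises the ER forms, and the constitutive forms are made in every cell.

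The fish were labelled as adult males of strain EK, 4 to 12 months old, and RNA was sequenced from the whole kidney. In this species the organ holds the nephrons together with the blood-forming marrow and the interrenal (adrenal) tissue. All fish, controls included, had undergone ablation of heart muscle cells: they were kept in 0.5 to 0.7 µM tamoxifen for 17 h, and tissue was taken 7 days afterwards. The labels do not name the transgene or promoter behind the ablation, and no uninjured or untreated kidney was analysed here, so every value describes an injured, tamoxifen-treated animal. The groups, of 3 libraries each, were cebpd+/+ (cebpd WT), cebpd-/- (cebpd KO), CEN+/+ (CEN WT) and CEN-/- (CEN KO). cebpd encodes a transcription factor of the C/EBP family, and CEN is known as an enhancer linked to that gene. What either lesion removes, whether each library is 1 fish, and how much time or handling separated the cebpd and CEN experiments are not given in the labels. P-values therefore set group differences against the spread between libraries of the same group. That spread may be technical, so the p-values may not extend to other fish.

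Gene counts per library ranged from 15793475 to 18104535. Levels are given as CPM, the count of a gene relative to all gene counts of its library on the usual scale, after scaling between libraries, so 3 counts correspond to 0.157 to 0.199 CPM. CPM is not corrected for transcript length, and levels were compared between groups, not between genes. The cebpd transcript itself reached 316, 466 and 337 CPM in the cebpd wild types and 10.4, 4.03 and 12.9 CPM in their knockouts. It stood at 294, 333 and 212 CPM in CEN WT and at 67.8, 72.8 and 77.9 CPM in CEN KO. The cebpd levels were thus lower in the knockouts than in their wild types, without overlap in either experiment. In the edgeR fit described below, cebpd was called in the cebpd comparison (adjusted p = 9.43e-05). It was not called in the CEN comparison (-1.94 ± 0.32 on the log2 scale, edgeR adjusted p = 0.106). Kidney identity was visible in tubule markers: the summed proximal tubule genes ranged from 8870 to 14700 CPM, and the podocyte genes from 350 to 729 CPM, over all groups. On the first principal component of all genes, which held 40.7% of the variance, the 6 cebpd libraries lay apart from the 6 CEN libraries. CEN KO replicate 1 stood apart on the second component and held 926 CPM of gonad genes, against 22.2 to 74.8 CPM in the other libraries. Its gonad RNA included the egg coat gene zp2.1 at 184 CPM, against 0 to 7.73 CPM elsewhere, although the fish are labelled male. In addition, CEN KO replicate 3 held 1050 CPM of skeletal muscle genes. Within cebpd KO, replicate 3 lay at -60.5 on the first component, against -7.86 and -19.2 for replicates 1 and 2. It had the lowest scaling factor of all libraries (0.835). Its log2 CPM correlated at 0.9522 and 0.9544 with replicates 1 and 2, which correlated at 0.9793 with each other.

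The kidney chaperones fell into 4 descriptive patterns over the groups. hsp90aa1.2, hspa4a and hsp70l were highest in all 3 cebpd WT kidneys, with lower levels in the other 3 groups; these overlapped one another for hsp90aa1.2 and hspa4a, whereas hsp70l did not overlap between CEN WT and CEN KO, a difference that missed the test. hspa5 and hspa9 were also highest in cebpd WT, with cebpd KO between it and the CEN groups. hsp90b1, hspa4b and hspa8 were higher in the cebpd experiment than in the CEN experiment whatever the genotype, and were called lower in CEN for both genotypes. These patterns were not exclusive. Every cebpd library was above every CEN library for hspa9 as well, and hsp90b1 was lower in cebpd KO than in cebpd WT without overlap. hsp90ab1 and hsp90aa1.1 showed no group difference past the test. In an edgeR quasi-likelihood fit over all 12 libraries, with Benjamini-Hochberg adjustment over 11840 genes and a threshold of 0.05, 8 of the 10 genes differed among the 4 groups, where 28.1% of all tested genes did so. In whole kidneys, fewer cells of a type and less RNA per cell cannot be told apart.

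**Figure D1:**
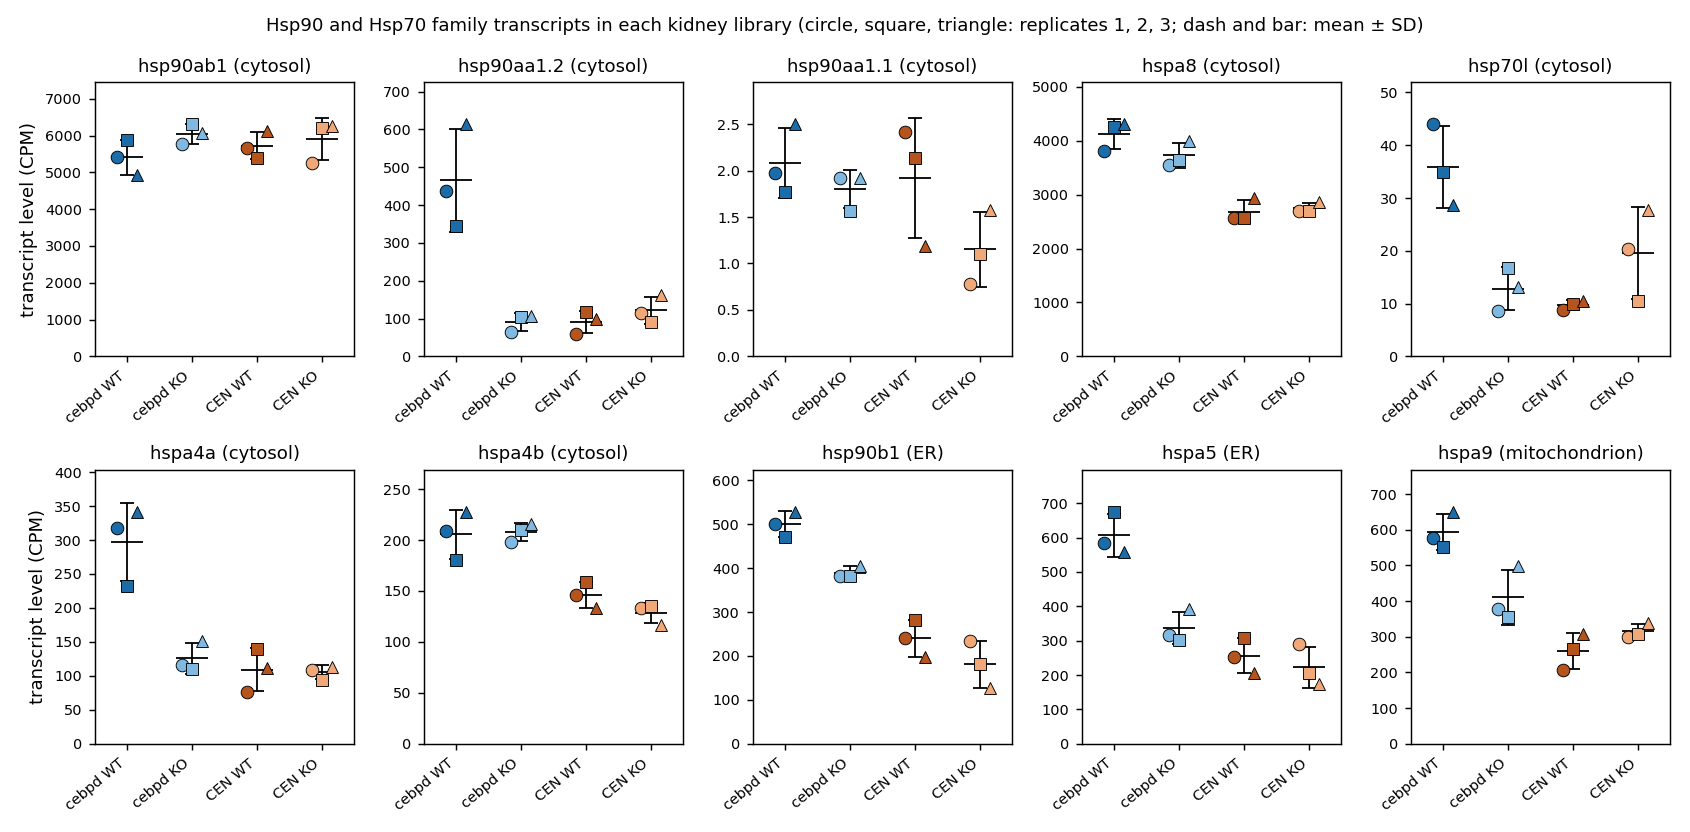
Level of each chaperone gene in each library, in CPM on a linear axis from 0, by group; circles, squares and triangles are replicates 1, 2 and 3, and dashes with bars are group means with SD. The cebpd WT libraries of hsp90aa1.2 reach from 344 to 614 CPM above all other libraries, while those of hsp90ab1 lie among the other groups.

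Among the cytosolic Hsp90 genes, hsp90aa1.2, a stress-inducible alpha form, had the widest spread between groups. It measured 437, 344 and 614 CPM in the cebpd wild types but 64.7, 104 and 107 CPM in cebpd KO. The CEN kidneys measured 60.1, 117 and 98.0 CPM in the wild types and 115, 91.0 and 161 CPM in the knockouts. Every cebpd WT kidney was thus above every other kidney, and the other 3 groups overlapped one another. Mean levels were 465 ± 137 CPM for cebpd WT and 91.9 ± 23.6 CPM for cebpd KO (SD, n = 3 each), 5.06-fold lower. Of the 10 chaperone genes, only hsp90aa1.2 was called lower in the cebpd knockout by edgeR (adjusted p = 0.0181). The difference between these groups measured -2.34 ± 0.32 on the log2 scale (SE). Over all genes, 0.0845% were called in that comparison and 0.0676% were called lower. The call did not hold without cebpd WT replicate 1 (log2 fold change -2.39, edgeR adjusted p = 0.0821), cebpd KO replicate 1 (-2.14, 0.0721) or cebpd KO replicate 2 (-2.44, 0.114). Nor did it hold in edgeR with only the 6 libraries of the groups compared (-2.31, 0.114). Its adjusted p ran from 1.16e-10 to 0.114 over the alternatives.

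The CEN comparison of hsp90aa1.2 gave 0.42 ± 0.30 on the log2 scale, with an edgeR adjusted p of 0.709. The cebpd effect minus the CEN effect was -2.76 ± 0.43, with an adjusted p of 0.0612, so the difference between the lesions did not pass the threshold in edgeR. The wild types of the CEN experiment were lower than those of the cebpd experiment by the same log2 value of -2.34 ± 0.32 (edgeR adjusted p = 0.000732). Both of these hsp90aa1.2 differences are taken against the same 3 cebpd WT libraries.

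hsp90ab1, the constitutive cytosolic Hsp90, stayed within a narrow range. Its levels were 5410, 5890 and 4920 CPM in the cebpd wild types and 5770, 6310 and 6070 CPM in cebpd KO. They were 5670, 5380 and 6110 CPM in CEN WT and 5260, 6210 and 6260 CPM in CEN KO. All 4 groups overlapped. The log2 difference was 0.16 (95% interval -0.14 to 0.47) in the cebpd comparison, 0.05 (-0.26 to 0.35) in the CEN comparison and 0.08 (-0.22 to 0.38) between the wild types. These are intervals around single estimates, unadjusted for the number of genes, and none of them reaches the values of hsp90aa1.2 in the cebpd experiment.

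hsp90aa1.1, the alpha form that zebrafish muscle needs for myosin folding, was barely present. It had 14 to 44 counts per library and group means of 2.08 ± 0.374, 1.80 ± 0.208, 1.92 ± 0.645 and 1.15 ± 0.403 CPM in cebpd WT, cebpd KO, CEN WT and CEN KO. No comparison passed the test, the most extreme being the CEN comparison at -0.74 ± 0.35 (log2; edgeR adjusted p = 0.527). hsp90aa1.1 and hsp90aa1.2 are direct neighbours in the RefSeq gene table and closely related in sequence, so reads could be shared between them. Summing the pair left the cebpd log2 fold change at -2.32 (edgeR adjusted p = 0.0181). With so few hsp90aa1.1 counts the sum could hardly differ from hsp90aa1.2 alone. It does not recover reads counted for neither gene, so sharing of reads was not tested.

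Among the cytosolic Hsp70 genes, hspa8 encodes the constitutive Hsc70. It measured 3810, 4250 and 4310 CPM in the cebpd wild types and 3550, 3640 and 4000 CPM in cebpd KO, which overlap. It measured 2570, 2560 and 2930 CPM in CEN WT and 2700, 2690 and 2870 CPM in CEN KO, which also overlap, and every CEN kidney was below every cebpd kidney. The log2 difference was -0.15 (95% interval -0.42 to 0.13) in the cebpd comparison and 0.03 (-0.25 to 0.31) in the CEN comparison. hspa8 was lower in CEN than in cebpd wild types by -0.62 ± 0.13 (edgeR adjusted p = 0.00557).

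hsp70l, the heat-inducible Hsp70 widely used as a stress reporter in zebrafish, was far more variable. It measured 44.0, 34.9 and 28.7 CPM in the cebpd wild types and 8.59, 16.8 and 13.1 CPM in cebpd KO, without overlap. In CEN WT it measured 8.78, 9.94 and 10.5 CPM, and in CEN KO 20.4, 10.5 and 27.8 CPM. The CEN knockouts were all at or above the highest wild type, with replicate 2 next to it. The cebpd comparison gave -1.48 ± 0.33 on the log2 scale and an edgeR adjusted p of 0.0877, which missed the threshold. The CEN comparison gave 1.01 ± 0.33 and an adjusted p of 0.296. It gave 0.98 without CEN KO replicate 1, 1.31 without replicate 2 and 0.67 without replicate 3 (edgeR adjusted p = 0.341, 0.178 and 0.804). Replicate 3 was the library with most skeletal muscle RNA, and a link was not tested. The difference between the effects of the lesions on hsp70l was -2.49 ± 0.46, with an adjusted p of 0.104. Between the wild types hsp70l was lower in CEN by -1.88 ± 0.33 (edgeR adjusted p = 0.00234).

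The large Hsp70 relatives hspa4a and hspa4b, zebrafish co-orthologues of the nucleotide exchange factor HSPA4, had different levels across the groups. hspa4a measured 318, 232 and 342 CPM in the cebpd wild types and 116, 110 and 152 CPM in cebpd KO. It measured 76.0, 139 and 112 CPM in CEN WT and 109, 93.6 and 113 CPM in CEN KO, so that all cebpd WT kidneys were above all others. The cebpd comparison of hspa4a gave -1.24 ± 0.22 (log2) and an edgeR adjusted p of 0.0534, just outside the threshold. It passed in 4 of 20 alternatives, such as 0.0411 when only genes of at least 10 CPM in 3 libraries were tested and 0.027 without cebpd KO replicate 3, and was 0.228 without cebpd KO replicate 2 and 0.247 with only the 6 libraries compared. The CEN comparison of hspa4a gave -0.05 ± 0.22. The wild types of the experiments differed by -1.45 ± 0.22 in hspa4a (edgeR adjusted p = 0.00127).

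hspa4b measured 209, 180 and 228 CPM in the cebpd wild types and 198, 210 and 216 CPM in cebpd KO. It measured 146, 159 and 133 CPM in CEN WT and 133, 135 and 117 CPM in CEN KO. The genotypes overlapped within each experiment, and the experiments did not overlap. The cebpd comparison of hspa4b gave 0.01 (95% interval -0.26 to 0.29, log2), which leaves out the value of -1.24 seen for hspa4a. Between the wild types hspa4b was lower in CEN by -0.50 ± 0.12 (edgeR adjusted p = 0.0141), a call that did not hold without cebpd WT replicate 3 (adjusted p = 0.056), CEN WT replicate 1 (0.0566) or CEN WT replicate 3 (0.0538).

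In the ER, hspa5 encodes BiP, the lumenal Hsp70 that also restrains the sensors of the unfolded protein response. It measured 585, 676 and 558 CPM in the cebpd wild types and 317, 302 and 391 CPM in cebpd KO. It measured 253, 309 and 207 CPM in CEN WT and 289, 206 and 173 CPM in CEN KO. All cebpd WT kidneys were above the rest, and cebpd KO and CEN WT overlapped. The cebpd comparison of hspa5 gave -0.85 ± 0.21 (log2; edgeR adjusted p = 0.103) and the wild-type comparison -1.24 ± 0.21 (adjusted p = 0.00182). The CEN comparison gave -0.20 ± 0.20.

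hsp90b1 encodes Grp94, the ER Hsp90, whose clients include integrins and Toll-like receptors. It measured 500, 470 and 529 CPM in the cebpd wild types and 381, 383 and 406 CPM in cebpd KO, without overlap. It measured 240, 282 and 198 CPM in CEN WT and 235, 181 and 128 CPM in CEN KO, which overlap. The knockout comparisons gave similar log2 values, -0.36 ± 0.20 for cebpd (edgeR adjusted p = 0.483) and -0.40 ± 0.20 for CEN (adjusted p = 0.54), and neither passed the test. hsp90b1 was lower in CEN than in cebpd wild types by -1.06 ± 0.20 (adjusted p = 0.00328).

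hspa9 encodes mortalin, the Hsp70 of the mitochondrial matrix, which pulls imported proteins through the inner membrane. It measured 578, 552 and 651 CPM in the cebpd wild types and 377, 355 and 499 CPM in cebpd KO. It measured 208, 265 and 307 CPM in CEN WT and 298, 307 and 339 CPM in CEN KO. The cebpd groups did not overlap, while the CEN groups did. The cebpd comparison of hspa9 gave -0.53 ± 0.17 (log2; edgeR adjusted p = 0.192), the CEN comparison 0.27 ± 0.17 (0.638) and the wild-type comparison -1.19 ± 0.17 (0.000931).

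**Figure D2:**
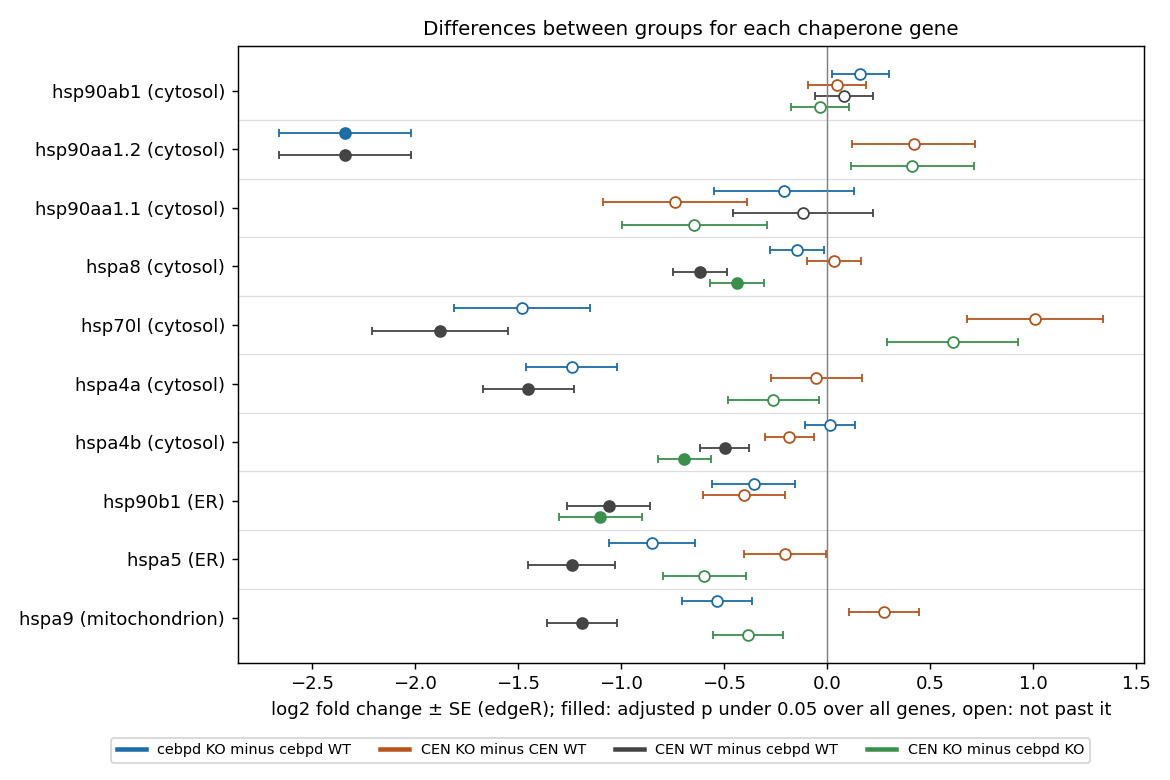
Log2 fold change of each chaperone gene with its standard error in 4 comparisons between groups, from edgeR; filled points passed the adjusted p threshold of 0.05 over all genes. hsp90aa1.2 is the gene with a filled point in the cebpd comparison, no point is filled in the CEN comparison, and 8 are filled between the wild types.

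Set side by side, the cebpd knockout and its wild types did not overlap for 6 of the 10 genes, hsp90aa1.2, hsp70l, hspa4a, hspa5, hspa9 and hsp90b1, and each of the 6 was lower in the knockout. Over all tested genes 8.25% were lower without overlap. Of the 10, 5 had an unadjusted p under 0.05, against 13.4% of all genes. The median log2 fold change of the 10 was -0.44, beside -0.01 for all genes. DESeq2 called 4 of the 10 in this comparison: hsp90aa1.2, hspa4a, hsp70l (adjusted p = 0.00122) and hspa5 (0.00589). It also called many more of all genes than edgeR did, as counted in the last section. These 4 calls are therefore not to be read beside the edgeR share of all genes.

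In the CEN knockout, edgeR called 0 of the 10 genes, where 0.00845% of all genes were called. DESeq2 and limma-voom called 0 as well, and 1 gene, hsp70l, had an unadjusted p under 0.05, against 9.86% of all genes. hsp70l was also the 1 gene of the 10 whose CEN groups did not overlap, against 19.4% of all genes. The median log2 fold change of the 10 was -0.01, beside 0 for all genes. For the difference between the effects of the lesions, edgeR called 0 of 10, with 0.0422% of all genes called. There, 5 of the 10 had an unadjusted p under 0.05, against 12.9% of all genes. DESeq2 called 4 and limma-voom 1. Both also called more of all genes than edgeR, as counted in the last section, so neither count is to be read beside the edgeR share. hspa4a (-1.19 ± 0.31, edgeR adjusted p = 0.141) and hspa9 (-0.81 ± 0.24, 0.184) lay behind hsp90aa1.2 and hsp70l.

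Between the wild types, 8 of the 10 genes were lower in CEN than in cebpd kidneys and none was higher, where 25% of all genes were called and 14.1% were called lower. The median was -1.12, beside 0.01 for all genes. The compartments were all represented among the 8: hsp90aa1.2, hsp70l, hspa4a, hspa4b and hspa8 in the cytosol, hspa5 and hsp90b1 in the ER, and hspa9 in the mitochondrion. Each of the 8 also had no overlap between the wild-type groups, against 23.6% of all genes lower without overlap. Genotype does not differ by design between these groups, and the experiment and anything that went with it, such as stock, date or handling, cannot be told apart.

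The knockouts of the experiments were compared after the levels had been seen. There, 3 of the 10 genes were lower in CEN KO than in cebpd KO, with 15.9% of all genes called and 8.52% lower. They were hsp90b1 (-1.10 ± 0.20 on the log2 scale, edgeR adjusted p = 0.00541), hspa4b (-0.69 ± 0.13, 0.00541) and hspa8 (-0.44 ± 0.13, 0.0386), which were also called lower in CEN between the wild types. Together with hspa5 and hspa9, they were the 5 of the 10 that were lower in CEN KO without overlap, against 18.2% of all genes. The hspa8 call did not hold when any 1 of 8 of the 12 libraries was left out, at adjusted p-values up to 0.131. hsp90aa1.2 differed by 0.41 ± 0.30 (0.364), hspa4a by -0.26 ± 0.22 (0.434) and hsp70l by 0.61 ± 0.32 (0.212). None of these passed the test, and the change from the wild-type to the knockout comparison equals, apart from its sign, the difference between the effects of the lesions given above. This comparison and the previous ones share libraries and are not independent.

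Ratios between chaperone genes within a library do not depend on how libraries are scaled. Here hsp90ab1 or hspa8, constitutive cytosolic forms, served as denominators. hspa8 was itself called lower in CEN than in cebpd wild types, so it is not a fixed reference there. The percentages are of CPM, which is not corrected for transcript length. hsp90aa1.2 amounted to 8.08, 5.85 and 12.5% of hsp90ab1 in the cebpd WT kidneys but 1.12, 1.65 and 1.76% in cebpd KO. It amounted to 1.06, 2.17 and 1.61% in CEN WT and 2.19, 1.47 and 2.58% in CEN KO. The log2 ratio was thus -3.58 ± 0.55 (SD, n = 3) in cebpd WT and -6.07 ± 0.35 in cebpd KO, without overlap. The log2 ratio of hsp70l to hspa8 differed by -1.37 in the cebpd comparison and by 0.87 in the CEN comparison, that of hspa5 to hspa8 by -0.71 and -0.25, that of hspa9 to hspa8 by -0.40 and 0.25, and that of hsp90b1 to hsp90ab1 by -0.52 and -0.48. None of the 5 ratios overlapped between the groups in the cebpd comparison or between the wild types, where all were lower in CEN. The share of other gene ratios without overlap was not computed. The 5 ratios share denominators, and each numerator was itself lower without overlap in both comparisons, so they are not separate observations. In the CEN comparison the ratios of hsp70l and hspa9 to hspa8 did not overlap either, and both were higher in the knockout. An exact two-sided permutation test of 3 against 3 libraries cannot go below p = 0.1, the value reached by each ratio without overlap, or 0.125 after adjustment over the 15 tests, so these ratios are descriptions.

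**Figure D3:**
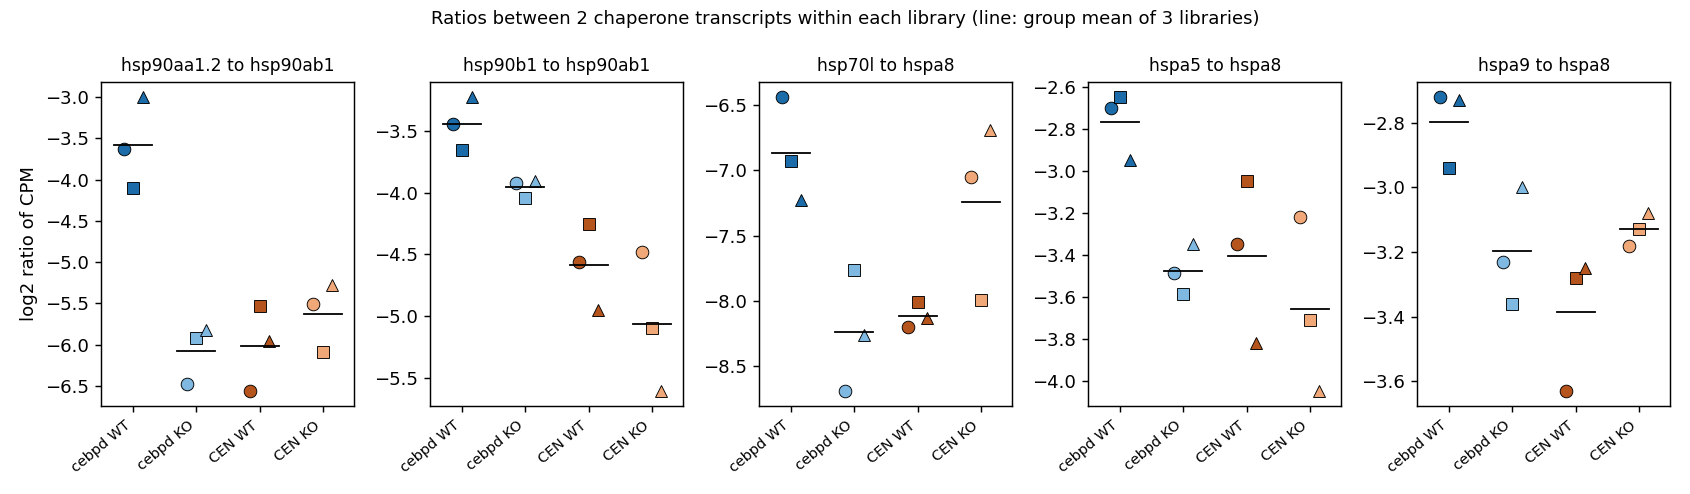
Log2 ratio of the CPM of inducible or organellar chaperone genes to that of a constitutive cytosolic one in each library; points are libraries and lines are group means. The mean log2 ratio of hsp90aa1.2 to hsp90ab1 is -3.58 in cebpd WT, with all 3 libraries above the others, and -6.07, -6.02 and -5.63 in cebpd KO, CEN WT and CEN KO.

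The genes with the most similar pattern were ranked by Pearson's correlation of log2 CPM over the 12 libraries. Since these points share the 4 groups and the split between experiments, r describes likeness of pattern. Nearest to hsp90aa1.2 were hspbp1 (r = 0.941), a nucleotide exchange factor of Hsp70, twistnb (0.924), a subunit of RNA polymerase I, and hsp70.1 (0.913), another heat-inducible Hsp70. Nearest to hspa4a were znf346 (0.965), khsrp (0.961) and dnajc5ga (0.961), the last a J-domain protein. For hsp70l they were nmrk2 (0.954), zc2hc1a (0.929) and tia1 (0.920), the last a stress granule protein.

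For the organellar forms, hspa5 was closest to grwd1 (0.962), nutf2 (0.955) and pdia4 (0.952), the last a disulfide isomerase of the ER. hsp90b1 was closest to acsbg2 (0.980), nup133 (0.979) and mthfd1l (0.970), and hspa9 to tomm34 (0.984), a co-chaperone of mitochondrial import, abcf2a (0.977) and pex19 (0.972). For hspa8 the nearest gene was hspe1 (0.983), the mitochondrial Hsp10, then calb2a and aldh1l1 (both 0.982), and for hspa4b they were dpp3 (0.981), ilf2 (0.977) and xrcc4 (0.975). hsp90ab1, with slc37a2 (0.846), babam1 (0.836) and pknox2 (0.824), and hsp90aa1.1, with si:dkey-7n6.2 (0.881), parp3 (0.876) and ttll9 (0.854), had looser nearest genes. Between the chaperone genes themselves, hsp90aa1.2 was closest to hspa4a (0.94), hsp90b1 to hspa4b (0.94) and hspa8 to hspa9 (0.93).

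The wider folding machinery was read through 7 lists. In each knockout comparison edgeR called 0 genes of any of them, although some members had an unadjusted p under 0.05: of 20 tested Hsp90 co-chaperones, 8 in the cebpd and 2 in the CEN comparison, and of 32 ER genes, 7 and 4, where the shares over all genes were 13.4% and 9.86%. Medians in the cebpd comparison were -0.29 for 7 other Hsp90 and Hsp70 relatives, -0.28 for the Hsp90 co-chaperones, -0.48 for 8 small heat shock proteins, -0.19 for 8 mitochondrial folding genes, -0.16 for the ER genes, -0.09 for 12 Hsp70 co-chaperones and -0.02 for 4 heat shock factors and regulators, beside -0.01 for all genes. hsp70.1 had the lowest value of the relatives, at -2.18 (edgeR adjusted p = 0.0534). It ranged from 61.3 to 101 CPM in the cebpd wild types and from 15 to 21.8 CPM in cebpd KO, without overlap, then from 9.44 to 22.3 CPM in CEN WT and from 10.7 to 30.3 CPM in CEN KO.

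In the wild-type comparison some partners were lower in CEN in every list but the heat shock factors and regulators, against the 14.1% of all genes called lower. Of the 7 relatives, 5 were lower, among them hsp70.1 (-2.36, edgeR adjusted p = 0.00195), hspa13 (-1.33, 0.000648) and hyou1 (-1.15, 0.00108), the large Hsp70 relative of the ER, while hspa12b was higher (2.08, 0.000937). Of the 20 Hsp90 co-chaperones, 10 were lower and none higher. They included ahsa1b (-1.33, 0.000807), an activator of the Hsp90 ATPase, ptges3a (-1.19, 0.000836), a p23 protein of the late Hsp90 complex, ttc4 (-1.39, 0.0019) and the phosphatase ppp5c (-0.76, 0.00191). Of the 12 Hsp70 co-chaperones, 4 were lower: hspbp1 (-1.23, 0.00135), bag3 (-1.16, 0.00223), bag4 (-1.03, 0.00152) and grpel1 (-1.11, 0.00297), the exchange factor of mitochondrial Hsp70.

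Some organellar partners were also lower in CEN wild types, where 14.1% of all genes were called lower. Of 32 ER genes, 15 were lower and none higher, with dnajb11 (-1.34, edgeR adjusted p = 0.000296), a J-domain partner of BiP, sdf2l1 (-1.43, 0.00174), manf (-1.73, 0.00114) and pdia6 (-0.81, 0.00207) as examples. Of 8 mitochondrial genes, 5 were lower, among them hspe1 (-1.69, 0.000167) and hspd1 (-1.66, 0.000319), which form the mitochondrial Hsp10 and Hsp60 chaperonin, and the protease clpp (-0.99, 0.00197). Means of hspd1 (SD, n = 3 per group) were 343 ± 55.9 CPM in cebpd WT, 233 ± 68.1 in cebpd KO, 108 ± 8.53 in CEN WT and 92.8 ± 2.29 in CEN KO. Of 8 small heat shock proteins, 2 were lower, hspb6 (-2.47, 0.00448) and hspb7 (-2.31, 0.00605), too few to be told from the share over all genes.

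Of 4 heat shock factors and regulators tested, 1 was called between the wild types, the same share as the 25% of all genes. It was hsf2, which was higher in CEN (0.60, edgeR adjusted p = 0.0117). hsf1, the main activator of the heat shock response, differed by -0.10 between the wild types (0.73) and by -0.21 in the cebpd comparison (0.724). It ranged from 39.1 to 56.5 CPM in cebpd WT, from 29.5 to 45.3 in cebpd KO, from 36 to 45.1 in CEN WT and from 43.5 to 55.6 in CEN KO, and all groups overlapped. hsf1 acts mainly through its protein state, which RNA counts do not measure.

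**Figure D4:**
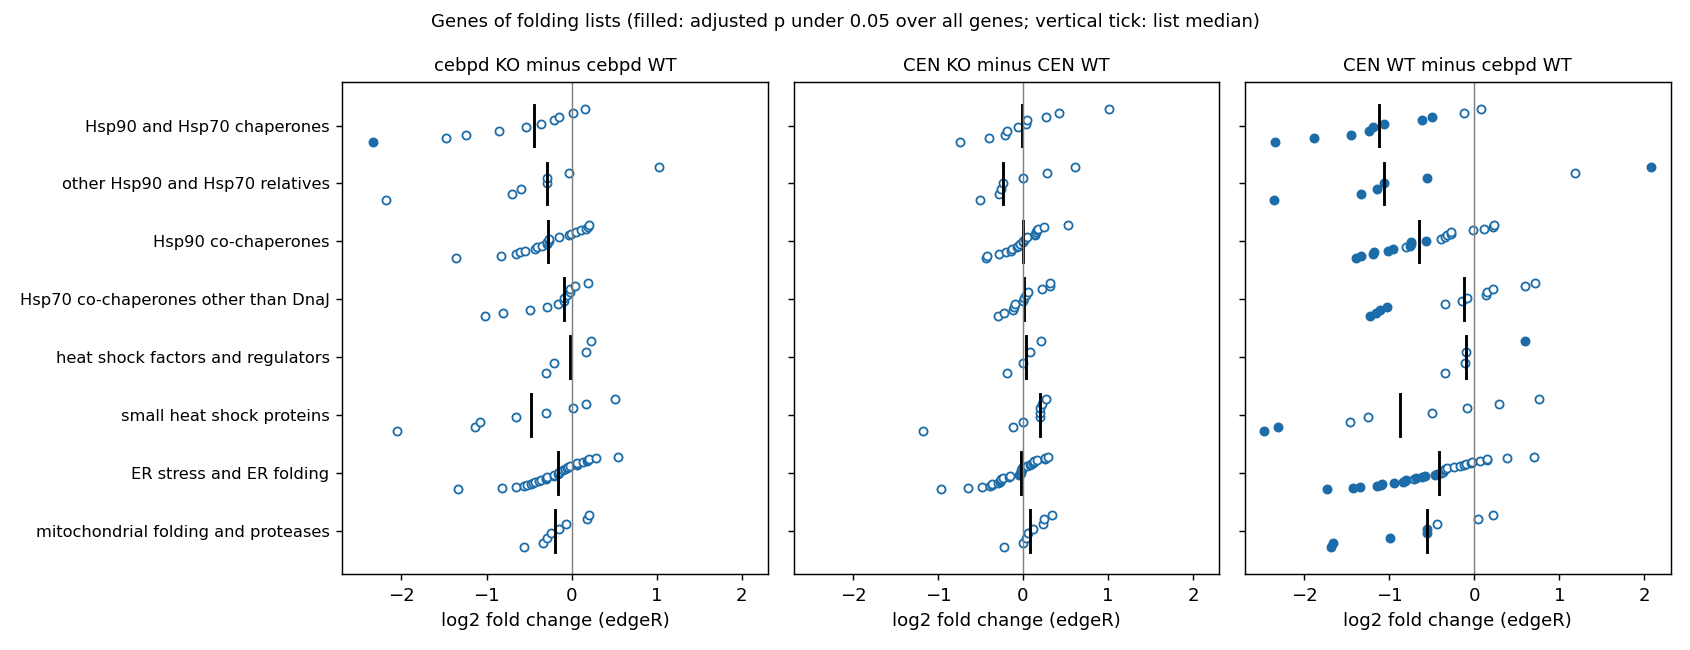
Log2 fold change of each tested gene of the chaperone set and of 7 folding lists in the cebpd, CEN and wild-type comparisons; points are genes, filled where the adjusted p was under 0.05, and vertical ticks are list medians. The median of the 10 chaperone genes is -0.44, -0.01 and -1.12 in the 3 comparisons, and that of the Hsp90 co-chaperones -0.28, 0 and -0.65.

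Other gene groups varied along with the chaperones, and their part in these results was not tested. Glucocorticoid-responsive genes, all 10 of them tested, summed to 6880 to 9890 CPM in cebpd WT, 4420 to 6570 in cebpd KO, 3170 to 3480 in CEN WT and 3310 to 3870 in CEN KO. cebpd WT had the highest sums and the highest hsp90aa1.2 levels. Within cebpd WT the highest sum (9890) was in replicate 2, which had the lowest hsp90aa1.2 (344). The lowest sum (6880) was in replicate 3, which had the highest hsp90aa1.2 (614). An order of 3 libraries cannot bear on a cause, and a link was not tested. edgeR called 0 of the 10 in the cebpd comparison, where 4 had an unadjusted p under 0.05 (13.4% of all genes), and 4 lower and 1 higher between the wild types (14.1% and 10.9% of all genes). Their median log2 value between the wild types was -0.32, with 7 below 0 and 3 above, from -5.05 to 1.08. In the cebpd comparison it was -0.38, from -1.62 to 0.41. A summed CPM can thus be carried by few genes of the list. fkbp5, which binds Hsp90, is on both that list and the co-chaperone list. Interrenal and chromaffin genes summed to 794 to 1170 CPM in cebpd WT, 507 to 882 in cebpd KO, 353 to 801 in CEN WT and 495 to 950 in CEN KO. Of the 10 tested, edgeR called 0 in either knockout comparison. In the cebpd comparison 5 had an unadjusted p under 0.05 (13.4% of all genes), and all 10 log2 values were below 0 (51.4% of all genes). In the CEN comparison 0 had an unadjusted p under 0.05 (9.86% of all genes), and all 10 values were above 0, where 49.4% of all genes were below 0. Between the wild types 1 of the 10 was called lower in CEN, against 14.1% of all genes. There 9 of the 10 values were below 0 (49.3% of all genes), with a median of -0.76, beside 0.01 for all genes.

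Neutrophil genes summed to 3490 to 4730 CPM in the cebpd wild types and 6360 to 7470 in cebpd KO, without overlap, and to 4370 to 6660 in CEN WT and 3940 to 5440 in CEN KO. Of 16 tested, edgeR called 0 in the cebpd comparison and 11 had an unadjusted p under 0.05, against 13.4% of all genes. B lymphocyte genes, of which 5 were in the table, summed to 55.3 to 72.6 CPM in the cebpd wild types and 103 to 139 CPM in CEN WT, and 3 of the 5 were higher in CEN, against 10.9% of all genes. Immediate early genes, which rise within minutes of handling or stress, summed to 1280 to 1820, 1500 to 1630, 1380 to 1860 and 1330 to 1410 CPM in cebpd WT, cebpd KO, CEN WT and CEN KO. The sums overlapped between all groups except the knockouts, which were lower in CEN KO. Of 19 tested genes 3 were called higher and 3 lower in CEN between the wild types, close to the shares of 10.9% and 14.1% over all genes. Without CEN KO replicate 1, the library with gonad RNA, hsp70l gave 0.98 in the CEN comparison (edgeR adjusted p = 0.341), and hspa5 was called between the knockouts (-0.82, adjusted p = 0.0255).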

How the data were processed

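The deposited files hold raw counts of reads per gene for 12 whole-kidney libraries. The build danRer10 and the tools TopHat2 2.1.1, Trim Galore 0.6.4 and HTSeq come from the submitters' processing notes; the sources used here give neither annotation nor strand setting. Reads outside genes made up 32.1 to 38.5% and ambiguous reads 1.32 to 3.99% of each library; these summary lines were left out.

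Counts were fitted in R 4.3.3 with edgeR 4.0.16 (TMM scaling, filterByExpr with a minimum count of 10, quasi-likelihood test, 4 groups, 12 libraries, 8 residual degrees of freedom), with Benjamini-Hochberg adjustment over 11840 genes. The biological coefficient of variation was 25.3%. Standard errors come from the quasi-likelihood statistic. The procedure was tested on simulated data. DESeq2 1.42.0 and limma 3.58.1 (voom) were alternatives.

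The chaperone genes and lists were chosen with earlier results of these data known. The text names all chaperone genes, cebpd and the 3 nearest genes of each chaperone gene by correlation (mean of at least 1 CPM). It also names up to 4 genes per folding list, from those most often and most strongly called. That rule also picked hspa14 and dnaja3a, whose values are not given. hspa12b, hsf1 and fkbp5 were added after their values were seen. Gene names matched the RefSeq table of assembly GRCz12tu, used for names and neighbours only.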

Additional observations from a re-analysis of the deposited data

How the results depend on the processing

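No called chaperone gene changed sign under the alternatives run; values near 0 did for hspa4a in the CEN comparison (-0.05 to 0.17), hspa4b for cebpd (0.01 to -0.07), hsp90aa1.1 between the wild types (-0.12 to 0.13), hsp90b1 in the difference between lesions (0.05 to -0.15) and hsp90ab1 between the knockouts (-0.03 to 0.05). Between the wild types, 7 of the 8 called genes kept their call in all of them. For the cebpd comparison, 10 genes became 63 with the filter of at least 10 CPM in 3 libraries, 410 in DESeq2, 1 with only the 6 libraries compared and 197 with a replicate block, and the chaperone count of 1 became 2, 4, 0 and 2. For CEN, 1 gene became 2, 137 in DESeq2, 5 in limma-voom, 2 with 6 libraries and 11 with the block. For the difference between the lesions, 5 genes became 344 in DESeq2, 8 in limma-voom and 129 with the block, and 0 chaperone genes became 4, 1 and 1, and 1 with the stricter filter. Between the knockouts 1879 genes became 814 with 6 libraries. The cause was not tested. The labels do not say whether the replicate numbers pair the libraries, and correlations between libraries cannot settle it. Log2 CPM itself correlated at 0.9481 to 0.9848 between libraries of the same group. The values that follow are correlations of deviations from group means, where values of both signs arise by construction. Same-numbered libraries correlated in this way at 0.3, -0.01 and 0.37 (cebpd) and 0.2, -0.02 and 0.16 (CEN), and not every one correlated best with its own number. Libraries of unlike number correlated at -0.44 to 0.33 (cebpd) and -0.24 to 0.05 (CEN). Leaving out 1 library gave 1 to 233 genes and 0 to 2 chaperone genes for cebpd, 1 to 7 and 0 to 0 for CEN, 0 to 48 and 0 to 2 for their difference, 1630 to 4013 and 7 to 8 between the wild types, 2398 to 4026 among all groups, and 795 to 1890 and 2 to 3 between the knockouts. In the difference between lesions, hsp90aa1.2 passed without cebpd KO replicate 3 (adjusted p = 0.0402) or CEN KO replicate 2 (0.0379), and hsp70l without CEN KO replicate 2 (0.0362). With 3 libraries a group, small shifts were not detectable, and hsp90aa1.1 had few counts.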
